A study of Homo sapiens with 6 samples.

Results

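The 10 genes described here encode enzymes of serine synthesis, of the exchange between serine and glycine, of folate one-carbon chemistry and of glycine cleavage: PHGDH, PSAT1, PSPH, SHMT1, SHMT2, MTHFD1, MTHFD2, ALDH1L2, GCSH and AMT. They were taken by symbol from a count table of 58978 genes, and all 10 had a single row. The set was chosen by a measured value, the lower GCSH count in one of the groups compared, so its values in that contrast are a description and carry no test. RNA-seq was done on HT29 (a standard line grown from a human colorectal adenocarcinoma) carrying a control hairpin (shCTRL, 3 libraries, genotype given as WT) or a hairpin that knocks down FITM2 (shFITM2, 3 libraries). FITM2 is an endoplasmic reticulum protein needed for lipid droplets to bud. All 6 libraries came from cells without a further treatment, grown in McCoy's 5A, a medium whose formula includes serine and glycine, with fetal bovine serum. The labels do not say which hairpin sequence was used, whether the cells were a clone or a pool, or whether replicates were separate cultures, so errors measure only the spread between these libraries.

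Cells make serine from the glycolytic intermediate 3-phosphoglycerate in a chain of steps run by PHGDH (a dehydrogenase), PSAT1 (an aminotransferase) and PSPH (a phosphatase). Serine hydroxymethyltransferase, SHMT1 in the cytosol and SHMT2 in mitochondria, then splits serine into glycine and a carbon unit carried by tetrahydrofolate. MTHFD2 in mitochondria and MTHFD1 in the cytosol move that unit between oxidation states for purine, thymidylate and methionine synthesis, and ALDH1L2 oxidises it in mitochondria with the formation of NADPH. The glycine cleavage system of mitochondria has 4 proteins: the decarboxylase GLDC, the aminomethyltransferase AMT, the dehydrogenase DLD and the lipoylated carrier GCSH, also called the H protein. GCSH additionally serves in the pathway that attaches lipoate to the pyruvate and 2-oxoglutarate dehydrogenase complexes.

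Total counts ran from 16964075 to 18855731 per library. FITM2 itself was lower in every shFITM2 library, at 4.83 to 5.98 CPM (counts divided by library size) against 10.4 to 13.2 in shCTRL (log2 fold change −1.12 ± 0.157, SE, shFITM2 minus shCTRL; exact permutation p = 0.1, the smallest that 3 against 3 libraries allow). The libraries differed from each other in how expression followed the GC content of transcripts. For every library a slope was taken of the log2 deviations from the gene means over the 6 libraries. Per 10 percentage points of GC it was −0.34 to −0.06 in shCTRL and 0.18 to 0.26 in shFITM2. These slopes are relative to that mean, so their signs do not say whether expression rose or fell with GC within a library. The library of shCTRL replicate 3 stood apart from the other shCTRL libraries, with the slope of −0.06 and a position between them and shFITM2 on the first principal component. Over 14635 genes the log2 fold change had a Spearman correlation of 0.74 with GC content, a description across genes that share these libraries. Each fold change is therefore given from a fit with the group alone and from a GC-adjusted fit, in which an offset removes the GC trend of each library. The 7 colon epithelial markers summed to at least 9074 CPM in every library. In the fit with the group alone 5 of them were called higher and 1 lower in shFITM2, beside 24.2% and 24.5% of all tested genes. Of 5 fibroblast markers COL1A2 and PDGFRB were at 0 in every library and the sum stayed at or below 2.52 CPM. The endothelial sum stayed at or below 1.41 CPM and the leukocyte sum without LYZ at or below 0.60 CPM. LYZ, a leukocyte marker that gut epithelium also makes, was at 765 to 914 CPM.

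In control cells the set was led by PSAT1. Levels are compared between genes as RPKM, which is CPM per kilobase of the gene length listed in the deposited table. PSAT1 stood at 107, 113 and 88.6 RPKM in the 3 shCTRL libraries (103 ± 12.8, SD, n = 3), above 97.7% of tested protein-coding genes. SHMT2 followed at 43.6 ± 4.57 RPKM and MTHFD2 at 37.5 ± 1.33, and their libraries came close, with the lowest SHMT2 value at 38.6 and the highest MTHFD2 value at 38.5. PSPH had 28.4 ± 1.56 RPKM, MTHFD1 13.4 ± 0.555 and SHMT1 8.19 ± 0.114. GCSH, at 7.54, 8.25 and 3.19 RPKM, and PHGDH, at 6.35, 5.85 and 6.57, could not be ordered within their spread. ALDH1L2 and AMT were near 0, at 0.101 and 0.00988 RPKM. For AMT, reads in exons shared with another gene on the same strand may not have been counted, which was not tested. The lower part of this order depended on the length used: per kilobase of the GENCODE transcript used for GC content, SHMT1 (24.2) and PHGDH (22.3) passed above MTHFD1 (18.5), with GCSH at 9.17. The serine synthesis steps thus had unequal mRNA levels, with PHGDH below PSAT1 and PSPH on either length.

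Of the 10 genes, 8 passed the filter on low counts. GCSH, by which the set was chosen, was lower in shFITM2 and is left out of the next count. In the fit with the group alone the other 7 were past an adjusted p of 0.05, with SHMT1, SHMT2 and PHGDH higher and PSAT1, PSPH, MTHFD1 and MTHFD2 lower in shFITM2. In that fit 48.7% of all tested genes were called (24.2% higher, 24.5% lower), and the contrast was in view when the set was chosen, so nothing is read from the count. After GC adjustment 1 of these 7 was called higher (SHMT1) and 2 lower (PSAT1 and PSPH), beside 29.0% of all genes tested (12.0% higher, 17.0% lower). The direction of PHGDH turned. The count of 3 was 1 without shCTRL replicate 1 or shFITM2 replicate 2, 2 without shFITM2 replicate 1 or 3, and 4 without shCTRL replicate 3. The median log2 fold change of the 8 was −0.26 and −0.11 after GC adjustment, against −0.000197 and −0.02 over all tested genes. The CPM of the groups did not overlap for any of the 8, which held for 59.0% of all tested genes. With the GC trend divided out the groups overlapped for PHGDH, PSAT1, SHMT2 and MTHFD2. GCSH is among the 8 here as a description. As these are bulk libraries, fewer cells with an mRNA and less of it per cell cannot be told apart. No p-value is given for single genes of the set, since they belong to the contrast that chose it.

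**Figure D1:**
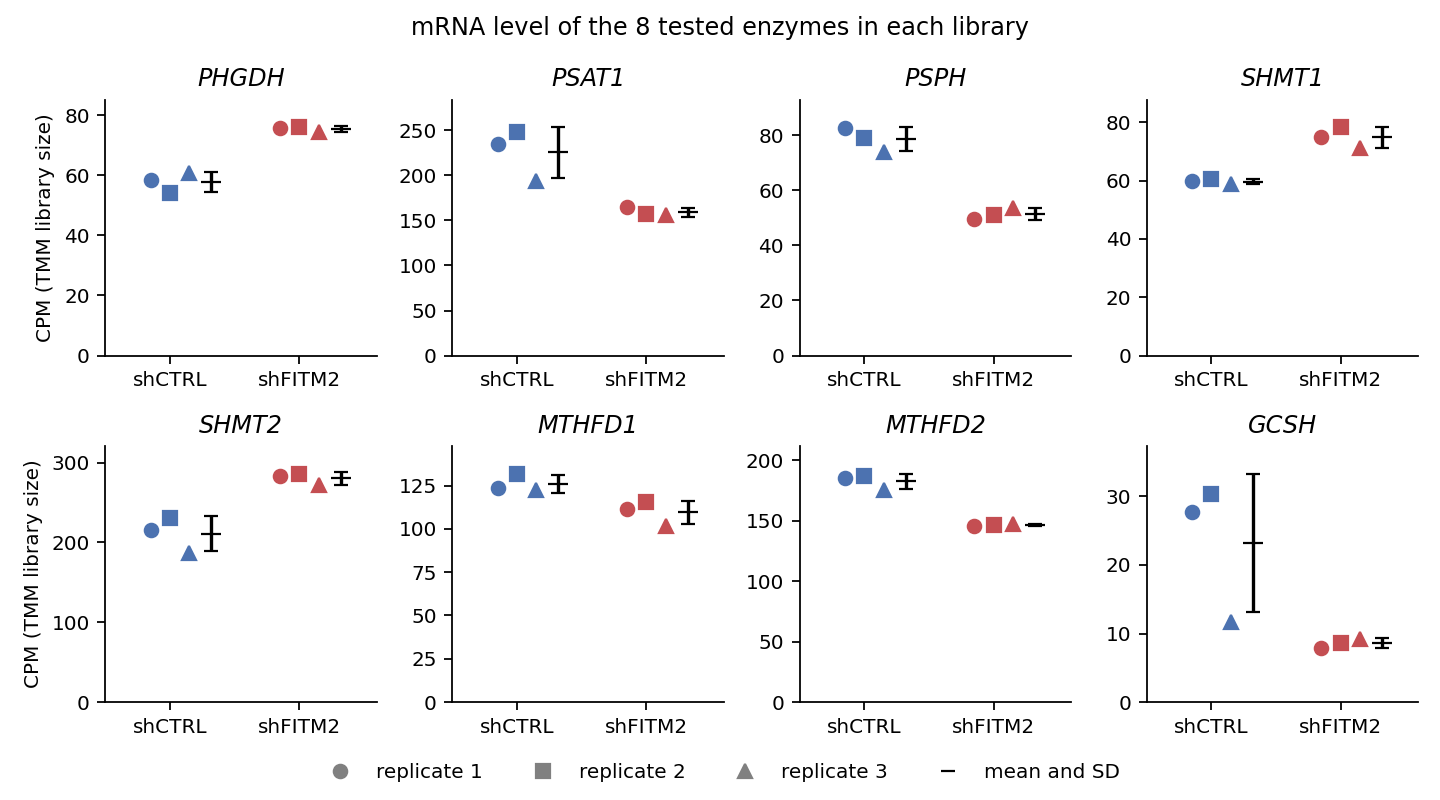
CPM of the 8 tested enzymes (y axes, each from 0) in the shCTRL and shFITM2 libraries (x axes). Marker shapes give the replicate number and black bars the mean and SD of 3 libraries. The groups do not overlap in any panel, and for GCSH the library of shCTRL replicate 3, at 11.7 CPM, lies far below the other shCTRL libraries, at 27.7 and 30.3 CPM.

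PHGDH, which commits carbon to serine synthesis, was at 58.6, 53.9 and 60.6 CPM in shCTRL and at 75.8, 76.0 and 74.4 in shFITM2. All shFITM2 libraries were higher, by 0.39 ± 0.075 on the log2 scale (SE), but after GC adjustment the value was −0.08 ± 0.06. With the GC trend divided out the groups overlapped, at 64.1 to 70.9 CPM in shCTRL and 63.0 to 65.4 in shFITM2. PHGDH has the highest GC content of the 8, 58.3%, and genes within 1 point of it had a median log2 fold change of 0.41. The difference of PHGDH was therefore close to that of other genes of its GC content.

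The next enzymes of the same chain were lower in shFITM2. PSAT1 was at 235, 248 and 194 CPM in shCTRL and at 165, 157 and 156 in shFITM2. The lowest shCTRL library, replicate 3, was still above all shFITM2 libraries. Its log2 fold change was −0.50 ± 0.088 and −0.21 ± 0.058 after GC adjustment, and with the GC trend divided out shCTRL replicate 3 (185.3 CPM) lay beside the highest shFITM2 library (185.9 CPM). Its GC-adjusted call was lost in the fits that left out shCTRL replicate 1, or replicate 2 or 3 of shFITM2.

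PSPH, which completes serine synthesis, was at 82.6, 79.0 and 74.0 CPM in shCTRL and at 49.6, 51.0 and 53.6 in shFITM2, which is 65.4% of control. The highest shFITM2 library stayed well below the lowest shCTRL library. Its log2 fold change was −0.61 ± 0.077 and −0.65 ± 0.064 after GC adjustment. Genes within 1 point of its GC content of 49.8% had a median of 0.01, so PSPH lay below genes of like GC content. PSPH was the only one of the 7 that kept its call in all 6 fits without 1 library, both with the group alone and after GC adjustment. The pseudogene PSPHP1 had no reads in any library.

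**Figure D2:**
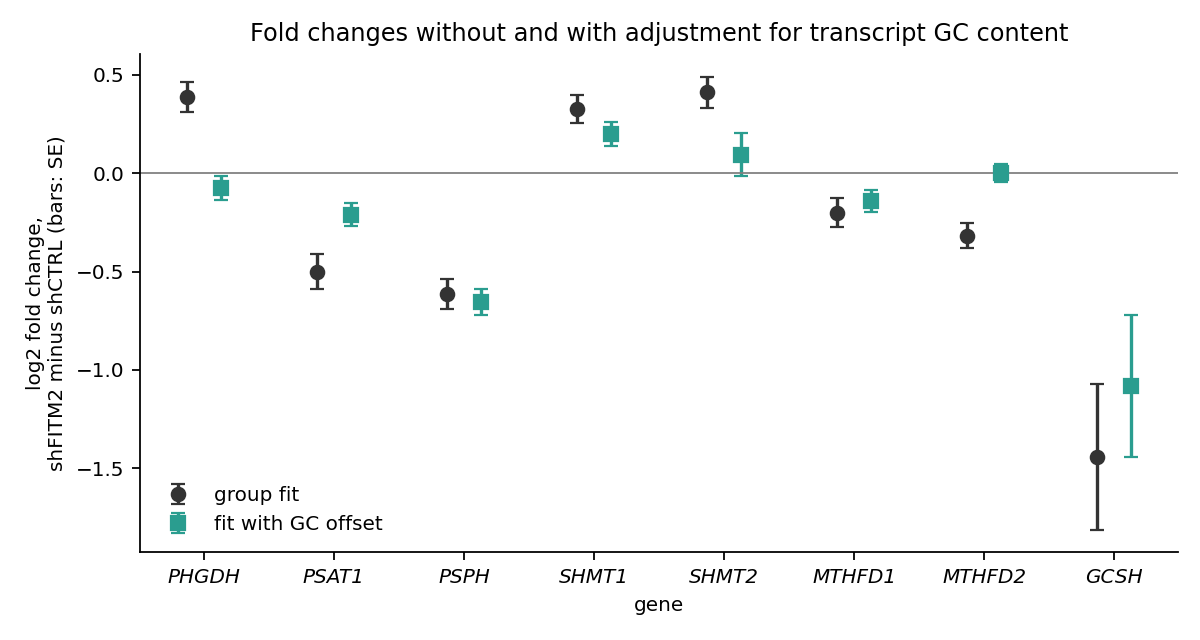
Log2 fold change of shFITM2 minus shCTRL (y axis, bars are SE) for the 8 tested enzymes (x axis), in the fit with the group alone (circles) and after GC adjustment (squares). PSPH is at −0.61 and −0.65 in both, while PHGDH moves from 0.39 to −0.08 and MTHFD2 from −0.32 to 0.

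In the fit with the group alone the serine hydroxymethyltransferases were both higher in shFITM2. Mitochondrial SHMT2 was at 216, 230 and 187 CPM in shCTRL and at 283, 286 and 271 in shFITM2. All shFITM2 libraries were above all shCTRL libraries, with a log2 fold change of 0.41 ± 0.08. After GC adjustment it was 0.09 ± 0.109, not called, and −0.02 when shCTRL replicate 3 was left out as well. Cytosolic SHMT1 was at 59.8, 60.4 and 58.8 CPM in shCTRL and at 74.8, 78.3 and 71.2 in shFITM2. This is a log2 fold change of 0.33 ± 0.073, and of 0.20 ± 0.06 after GC adjustment. With the GC trend divided out the SHMT1 groups stayed apart, at 59.7 to 64.7 CPM against 69.0 to 74.9. Those of SHMT2 overlapped, at 195 to 269 CPM in shCTRL and 250 to 256 in shFITM2. The call of SHMT1 after GC adjustment was lost in the fits that left out shCTRL replicate 1, or replicate 1 or 2 of shFITM2. SHMT1 shares 196 exon bases with the opposite-strand gene SMCR8, and SMCR8 reads could be counted with it, since the strand setting of the counting is not given in the sources used here.

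Among the folate enzymes, MTHFD2, the mitochondrial dehydrogenase and cyclohydrolase, was at 185, 187 and 175 CPM in shCTRL and at 146, 146 and 147 in shFITM2. The shFITM2 libraries were nearly equal and all lower, with a log2 fold change of −0.32 ± 0.063. After GC adjustment the fold change was −0.000591 ± 0.0457, and 0.02 when transcript length was adjusted for as well, so no direction remained. Its transcript has 41.4% GC, and genes within 1 point of that had a median of −0.37. MTHFD1, the cytosolic trifunctional enzyme, was at 123, 132 and 122 CPM in shCTRL and at 111, 115 and 102 in shFITM2, with a log2 fold change of −0.20 ± 0.073 and −0.14 ± 0.057 after GC adjustment. In the fit with the group alone its fall was the smallest of the set, and in each kind of fit its call was made in only 1 of the 6 fits without 1 library, that without shCTRL replicate 3. ALDH1L2 had 14, 24 and 9 reads in shCTRL and 6, 4 and 9 in shFITM2. It did not pass the filter, and its groups touched at 9 reads.

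GCSH showed the largest difference of the set. It was at 27.7, 30.3 and 11.7 CPM in shCTRL and at 7.85, 8.68 and 9.26 in shFITM2, from 143 to 561 reads per library. The library of shCTRL replicate 3 was nearer to the shFITM2 libraries than to the other shCTRL libraries. The log2 fold change was −1.44 ± 0.371, and −1.08 ± 0.36 after GC adjustment. Without shCTRL replicate 3 it was −1.76 ± 0.118, and −1.37 ± 0.113 after GC adjustment, so the error was much smaller without that library. Over the 6 fits without 1 library it ranged from −1.76 to −1.21, and from −1.37 to −0.88 after GC adjustment. GCSH kept its call in 3 of these 6 fits, and in 1 of 6 after GC adjustment. With all libraries it was not called after GC adjustment. Genes within 1 point of the GC content of GCSH, 40.7%, had a median of −0.39. With the GC trend divided out the libraries stood at 24.2, 25.7 and 11.1 CPM in shCTRL and at 9.07, 9.79 and 10.2 in shFITM2.

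GCSH lies on chromosome 16, 81081938 to 81096425, minus strand (GRCh38), and has a processed pseudogene, GCSHP5, on chromosome 1, 168055901 to 168056422, minus strand. In the GENCODE 29 transcripts GCSHP5 matched the coding sequence of GCSH at 518 of 519 aligned bases, with 396 bases in the longest run without a difference. The stretch from base 63 to base 182 of the GCSH coding sequence is shown with its counterpart because it holds the single difference, which is in capitals.
GCSH: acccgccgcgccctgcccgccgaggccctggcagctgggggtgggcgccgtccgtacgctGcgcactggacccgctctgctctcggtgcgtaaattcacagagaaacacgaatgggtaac
GCSHP5: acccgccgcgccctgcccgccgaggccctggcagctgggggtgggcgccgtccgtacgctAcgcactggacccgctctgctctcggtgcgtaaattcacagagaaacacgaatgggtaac
Reads that lie wholly inside the coding part and do not cover this base match both loci. How reads with several matches were counted is not given in the sources used here.

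GCSHP5 had 109, 184 and 112 reads in shCTRL and 102, 104 and 116 in shFITM2, or 7.43 ± 2.22 CPM against 6.14 ± 0.636 (SD, n = 3). Its groups overlapped, and its log2 fold change of −0.28 ± 0.206 was not called (adjusted p = 0.287; adjusted p-values here are from the quasi-likelihood test of edgeR, Benjamini-Hochberg). In each shFITM2 library GCSHP5 had fewer reads than GCSH (143, 151 and 157). GCSHP5 has a length of 522 bases against 3677 for GCSH, so its reads per base were higher. The read-through genes AC092718.3 and AC092718.8 share 442 and 430 exon bases with GCSH on the same strand and had 4 to 18 reads per library. With these 3 loci added, the GCSH sum was 34.8, 41.9 and 19.5 CPM in shCTRL and 14.4, 16.1 and 17.2 in shFITM2, and its log2 fold change was −1.01 ± 0.273. The difference was therefore smaller, but in the same direction, when the reads counted at these 4 loci were pooled. The other GCSH pseudogenes had at most 2 reads in a library. The pseudogene copies of PSAT1, SHMT1, MTHFD1 and MTHFD2 matched at 80.3% to 95.4% of aligned bases, and none had more than 21 reads in a library.

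**Figure D3:**
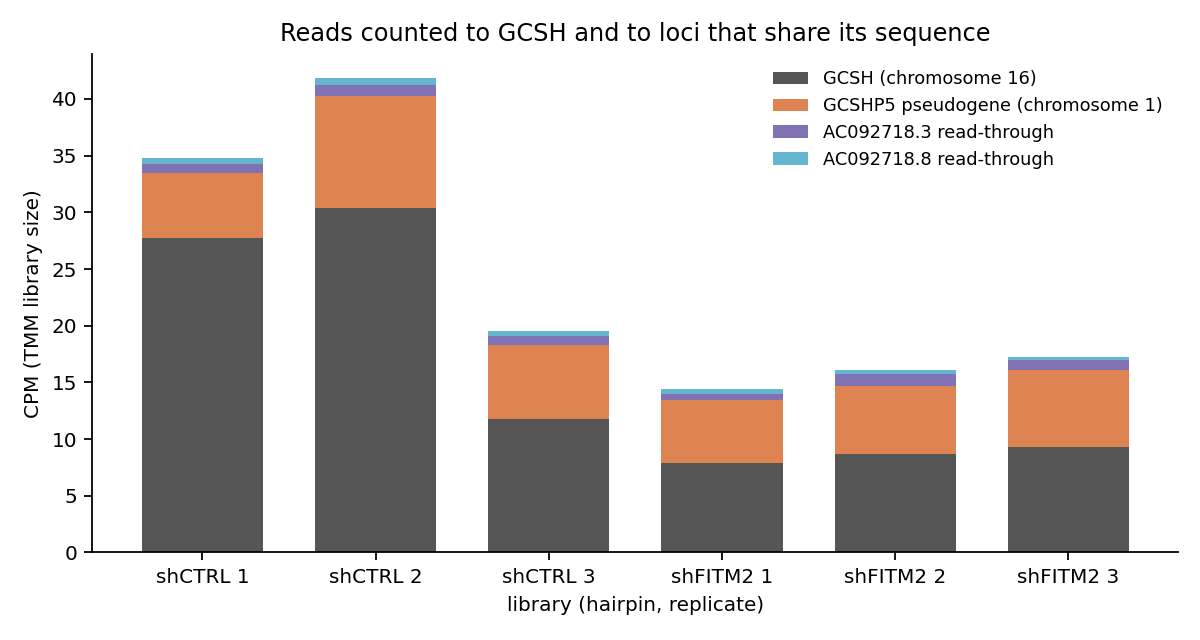
CPM counted to GCSH and to the 3 loci that share its sequence (stacked bars, y axis from 0) in each of the 6 libraries (x axis). GCSH is at 23.3 ± 10.1 CPM in shCTRL and 8.60 ± 0.709 in shFITM2 (SD, n = 3 per group), while the GCSHP5 part stays between 5.60 and 9.95 CPM in all libraries.

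Of the glycine cleavage genes, only GCSH and DLD were counted with more than a few reads. GLDC had no read in any of the 6 libraries, which allows up to 0.159 to 0.177 CPM per library. AMT had 1, 0 and 2 reads in shCTRL and 0, 2 and 0 in shFITM2. It shares 3624 of its 5746 exon bases with AC104452.1 on the same strand, which had 9 reads over the 6 libraries. Reads in the shared bases may have been left out of both counts, which was not tested, so these counts say little about AMT mRNA. DLD, which also serves the pyruvate and 2-oxoglutarate dehydrogenase complexes, was well expressed, at 157, 159 and 151 CPM in shCTRL and at 111, 127 and 125 in shFITM2. Its log2 fold change of −0.37 (adjusted p = 0.00167, edgeR) became 0.02 after GC adjustment (adjusted p = 0.83), so its direction was lost.

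The fold changes of the 8 enzymes lined up with GC content. Their Spearman correlation with it was 0.81 in the fit with the group alone and 0.55 after GC adjustment, a description over 8 genes of the same libraries. The 4 transcripts with at most 47.6% GC (GCSH, MTHFD2, PSAT1 and MTHFD1) were lower in shFITM2, and the 3 with at least 51.5% (SHMT1, SHMT2 and PHGDH) higher. MTHFD2 and PHGDH lay on the median of genes with their GC content, and PSPH and GCSH lay furthest below it. A real change in the cells would be removed too wherever it ran along GC content, and the part of the cells or of the libraries in the trend was not tested.

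**Figure D4:**
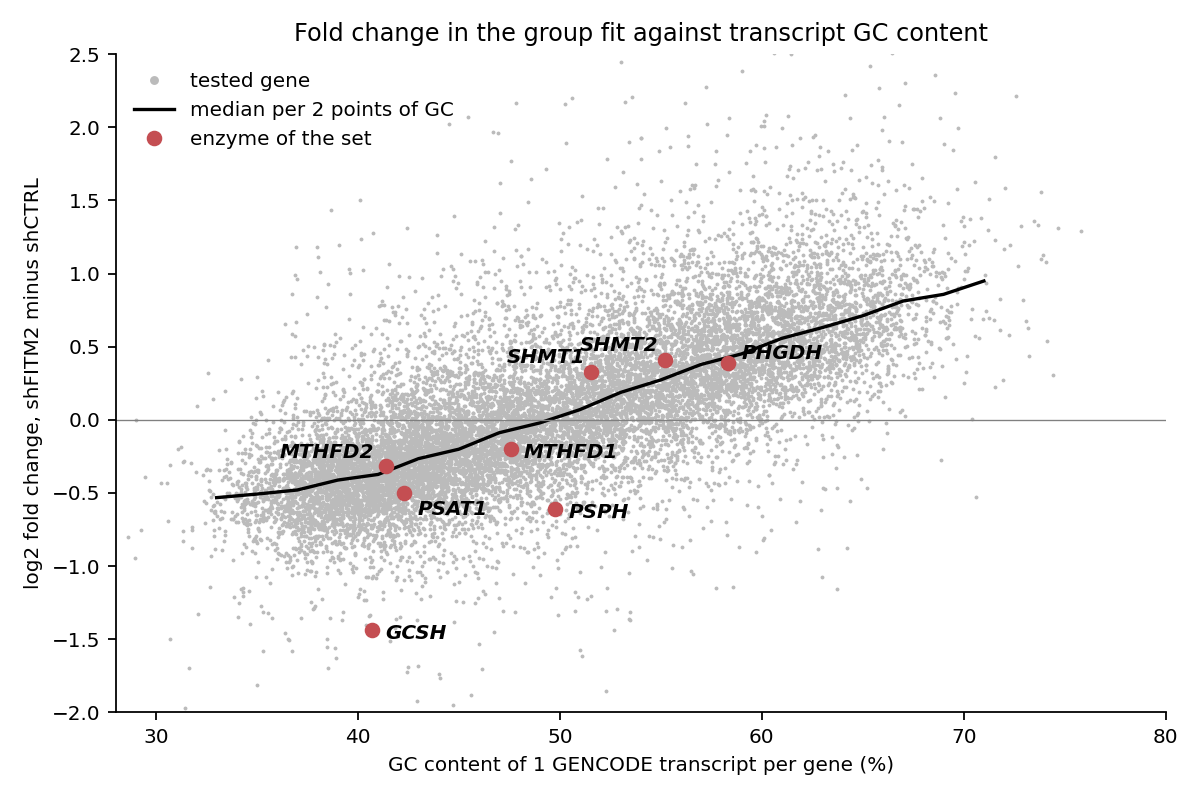
Log2 fold change of shFITM2 minus shCTRL in the fit with the group alone (y axis) against the GC content of 1 transcript per gene (x axis, %). Grey points are tested genes, the black line is their median per 2 points of GC, and 27 genes lie outside the plotted range. PHGDH and MTHFD2 sit on the line, whereas PSPH (−0.61) and GCSH (−1.44) lie below it.

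Lipoylation is the other known use of GCSH, and a list of glycine cleavage genes, lipoate enzymes and subunits of the lipoylated complexes was examined. This list and the lists below were chosen with earlier results of these data known, so nothing is read from their counts. Of 9 genes on that list 8 were tested, with 5 called lower and 1 higher (median −0.38), and 4 lower and none higher after GC adjustment (median −0.09). Over all tested genes 24.5% were called lower and 24.2% higher, and 17.0% and 12.0% after GC adjustment. The 5 called lower were PDHX, DLAT, DBT, LIAS and DLD, and the 1 called higher was DLST, the lipoylated core of the 2-oxoglutarate dehydrogenase complex, at 0.23 (adjusted p = 0.0134, edgeR) and 0.08 after GC adjustment (adjusted p = 0.254). The lipoyltransferases LIPT1 and LIPT2 were not called in the fit with the group alone (adjusted p = 0.333 and 0.917), and LIPT2 was called lower after GC adjustment, at −0.59 (adjusted p = 0.0227). LIPT2 shares 368 of 1187 exon bases with AP001372.2 on the opposite strand, which had 194.8 reads on average against 95.2 for LIPT2. DLST, LIPT1 and LIPT2 were named after their values were seen. PDHX, which anchors DLD in the pyruvate dehydrogenase complex, was at 69.3, 70.6 and 65.9 CPM in shCTRL and at 46.3, 50.7 and 52.2 in shFITM2. Its log2 fold change was −0.46 (adjusted p = 0.0007, edgeR) and −0.23 after GC adjustment (adjusted p = 0.0115). DLAT, the lipoylated core of that complex, had −0.40 and −0.15 (adjusted p = 0.000969 and 0.0353), and DBT, its counterpart for branched-chain keto acids, −0.42 and −0.03 (adjusted p = 0.00153 and 0.789). LIAS, the lipoyl synthase, was named after its values were seen and had −0.60 and −0.44 (adjusted p = 0.00296 and 0.0195). It shares 363 exon bases with RPL9 on the opposite strand, a gene with 4901 reads on average, against 107 to 188 for LIAS. After GC adjustment the call of PDHX was lost without shFITM2 replicate 1, that of LIAS without shFITM2 replicate 1 or 2, and that of DLAT held only without shCTRL replicate 3.

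Of the other mitochondrial folate genes 2 of 5 tested were called, both lower, beside 48.7% of all tested genes. MTHFD1L, the mitochondrial formate-releasing synthetase that completes the route MTHFD2 begins, was at 53.3, 57.8 and 66.5 CPM in shCTRL and at 45.5, 49.3 and 46.7 in shFITM2. Its log2 fold changes were −0.33 and, GC-adjusted, −0.47 (adjusted p = 0.0129 and 0.000265, edgeR), and the first call was lost without shFITM2 replicate 1 (adjusted p = 0.0601). MTHFD2L, a paralogue of MTHFD2, had −0.50 (adjusted p = 0.00136) and −0.06 (adjusted p = 0.684). MTHFD1L was thus the only one of these 5 genes called in the GC-adjusted fit, beside 29.0% of all tested genes.

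Cytosolic folate genes went both ways in the fit with the group alone, with 4 called higher and 3 lower of 10 tested, and one way after GC adjustment, with 4 lower and none higher. The shares over all tested genes were 24.2% higher and 24.5% lower, and 12.0% and 17.0% after GC adjustment. SLC46A1, the proton-coupled folate transporter, was low, at 3.50, 3.84 and 3.40 CPM in shCTRL and 2.14, 2.24 and 1.53 in shFITM2. It had −0.86 and −1.19 after GC adjustment (adjusted p = 0.00899 and 0.00132, edgeR), and shares 4421 of 7838 exon bases with SARM1 on the opposite strand. FPGS, which adds glutamates to folate and keeps it in the cell, had 0.40 (adjusted p = 0.00501) and −0.30 (adjusted p = 0.000637), so that it was called in opposite directions by the fits.

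The methionine cycle takes up the carbon unit as a methyl group, and 4 of its 7 tested genes were called lower and none higher. After GC adjustment 5 were lower and 1 higher. Among all tested genes 24.5% were called lower and 24.2% higher, and 17.0% and 12.0% after GC adjustment. MAT2A, which makes S-adenosylmethionine, was at 542, 511 and 507 CPM in shCTRL and at 376, 381 and 404 in shFITM2. Its log2 fold changes were −0.43 and, GC-adjusted, −0.28 (adjusted p = 0.000304 and 0.000238, edgeR). MTR, methionine synthase, had −0.49 and −0.31 (adjusted p = 0.000644 and 0.00277), and MTRR, which reactivates it, −0.48 and −0.19 (adjusted p = 0.000576 and 0.0246). The MAT2A and MTR calls held in all fits without 1 library, GC-adjusted or not. The GC-adjusted call of MTRR was lost in the fits that left out shCTRL replicate 1, or replicate 1 or 2 of shFITM2. MAT2A and MTRR share 558 and 100 exon bases with GGCX and FASTKD3 on the opposite strand.

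Carriers and breakdown enzymes of serine and glycine had 3 called higher and 3 lower of 9 tested, and 1 higher and 3 lower after GC adjustment. For all tested genes the shares were 24.2% higher and 24.5% lower, and 12.0% and 17.0% after GC adjustment. SFXN1, the mitochondrial serine importer, was at 138, 140 and 133 CPM in shCTRL and at 107, 107 and 108 in shFITM2, a log2 fold change of −0.35, and of −0.14 after GC adjustment (adjusted p = 0.00118 and 0.0367, edgeR). The latter call held in only 1 of 6 fits without 1 library, that without shCTRL replicate 3. Its paralogue SFXN3 had 0.38 (adjusted p = 0.00119) and 0.06 (adjusted p = 0.562). SLC1A4, a neutral amino acid transporter that carries serine, had −0.46 and −0.65 (adjusted p = 0.00327 and 0.000146), in the same direction in every fit without 1 library.

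ATF4 is a transcription factor that drives PHGDH, PSAT1, PSPH, SHMT2 and MTHFD2 in amino acid shortage. In the fit with the group alone its own mRNA was higher in shFITM2, as were PHGDH and SHMT2. PSAT1, PSPH and MTHFD2 were lower in that fit. After GC adjustment only PSAT1 and PSPH of these genes were called, both lower, and ATF4 was not called. ATF4, named after its values were seen, was at 223, 194 and 305 CPM in shCTRL and at 399, 401 and 378 in shFITM2. Its log2 fold change was 0.71 ± 0.156, and 0.34 ± 0.117 after GC adjustment (adjusted p = 0.00814 and 0.083, edgeR). Over the 6 GC-adjusted fits without 1 library it ranged from 0.24 to 0.48, with adjusted p up to 0.196. It was called in 2 of these fits, those without shCTRL replicate 2 or 3 (adjusted p = 0.0487 and 2.73e-14). Of this list of 8 regulators and their targets 5 were called higher and 2 lower, and 2 and 2 after GC adjustment. Over all tested genes this was 24.2% and 24.5%, and 12.0% and 17.0% after GC adjustment. CHAC1, a glutathione-degrading ATF4 target, had 1.14 and 0.49 (adjusted p = 0.000243 and 0.019), and SESN2, a stress-induced target, 0.67 and 0.16 (adjusted p = 0.00207 and 0.286). DDIT3 and TRIB3, also on this list, were named after their values were seen. DDIT3 had 0.56 and 0.52 (adjusted p = 0.0116 and 0.0175), and shares 355 exon bases with MARS on the opposite strand. TRIB3 had 0.24 and −0.34 (adjusted p = 0.0455 and 0.000186), so the fits called it in opposite directions. The GC-adjusted call of CHAC1 was lost without shCTRL replicate 1 or shFITM2 replicate 1. ASNS, asparagine synthetase and another ATF4 target, was also named after its values were seen and had −0.62 and −0.54 (adjusted p = 0.0413 and 0.101), at 2.16 to 3.34 CPM on average. It shares 1985 of 4455 exon bases with AC079781.5 on the same strand. Reads in the shared bases may have been left out of both counts, which was not tested. The ASNS call held in only 1 of 6 fits without 1 library, that without shCTRL replicate 1. NFE2L2, which encodes NRF2, another activator of serine synthesis genes, fell, with −0.63 and, GC-adjusted, −0.49 (adjusted p = 0.000289 and 7.65e-05). It shares 1054 of 5979 exon bases with AC019080.1 on the same strand and 54 with AGPS on the opposite strand.

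Over the 6 lists together, 32 of 47 tested genes were called, 13 higher and 19 lower, and 23 after GC adjustment, 4 higher and 19 lower. Of all tested genes 48.7% were called (24.2% higher, 24.5% lower), and 29.0% after GC adjustment (12.0% higher, 17.0% lower). In both fits 15 were called in one direction (13 lower, 2 higher), and 5 changed sides. Of the 14635 genes in both fits these were 2617 (1447 lower, 1170 higher) and 306. Without shFITM2 replicate 1 the count after GC adjustment was 15. As the lists were chosen with earlier results of these data known, nothing is read from these counts.

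**Figure D5:**
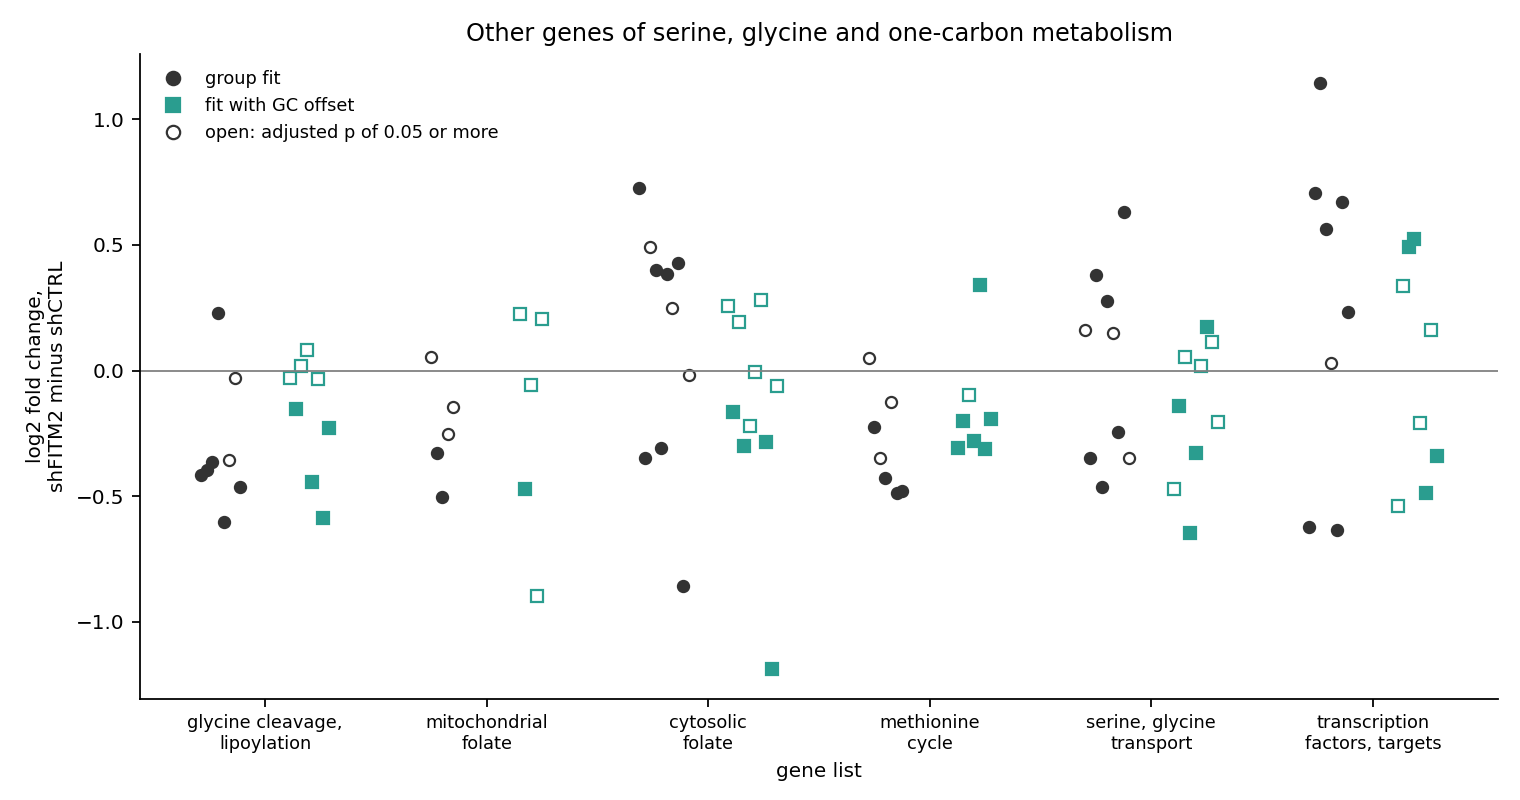
Log2 fold change of shFITM2 minus shCTRL (y axis) for the 47 tested genes of 6 lists of related genes (x axis), in the fit with the group alone (circles) and after GC adjustment (squares). Filled symbols have an adjusted p under 0.05. After GC adjustment 4 filled symbols lie above 0 and 19 below, beside 12.0% called higher and 17.0% lower of all tested genes.

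Among 9937 protein-coding genes with a mean of at least 5 CPM, those whose log2 CPM followed GCSH most closely over the 6 libraries were MAPK6, RIPK2, LDHB, ZFAND6 and ADSS, with Pearson correlations of 0.997 to 0.9996. In each of them shCTRL replicate 3 lay between the other shCTRL libraries and shFITM2. LDHB, a lactate dehydrogenase subunit, was at 79.0, 87.2 and 49.6 CPM in shCTRL and at 38.6, 42.1 and 42.5 in shFITM2. Their differences were smaller than that of GCSH, with log2 fold changes from −0.81 for LDHB to −0.18 for ADSS. Within the set PSAT1 was closest to GCSH, at 0.967, and PHGDH furthest, at −0.914. These correlations are descriptions over libraries that share the 2 groups and were picked as the highest of many.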

How the data were processed

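The deposited table holds raw read counts per gene for 6 RNA-seq libraries of HT29 cells, made from Trizol-extracted total RNA with a directional kit, per the labels' protocols. Tools named in the submitters' processing notes, without their roles, are featureCounts 1.5.0-p3, HISAT2 2.0.5, DESeq2 1.16.1 and StringTie 1.3.3b, and the build named is hg19. The gene positions are those of GRCh38: all 58735 Ensembl identifiers have the GENCODE 29 position. The control columns spell shCTRL with 2 letters swapped and were matched to the sample titles. Gene lengths are those of the deposited table. Of the 58978 rows, 243 have no symbol.

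Counts were tested with edgeR 4.0.16 (quasi-likelihood F-test, robust, TMM, group as the sole term; R 4.3.3), with Benjamini-Hochberg adjustment over the 14809 genes that passed filterByExpr (at least 10 counts, at least 15 in total), and called at an adjusted p under 0.05. SE is the absolute log2 fold change divided by the root of F. CPM uses TMM library sizes. For the GC adjustment a spline with 6 degrees of freedom was run through the log2 deviations of every library (prior count 2) against GC, taken from the longest GENCODE transcript, coding ones first, and entered as an offset. It may not be the transcript these cells use. The scripts were tested on simulated data. Replicates differed by 2.35 to 28.6 chi-square units per gene, above the value near 1 of sampling noise, and were kept as separate samples.

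The enzymes and lists were chosen with earlier results of these data known. Named genes were all enzymes of the set, FITM2, GLDC, DLD, up to 3 called genes with the smallest p of each list, and the 5 coding genes most like GCSH. One result that this rule names is not reported here. Alternatives were DESeq2 size factors, library totals, no filter, DESeq2 1.42.0, limma-voom (limma 3.58.1), GC with length, the replicate block, and each library left out, with and without the GC offset. The pooled GCSH reads and the transcript length for RPKM were added after seeing the data.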

Additional observations from a re-analysis of the deposited data

How the results depend on the processing

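Under DESeq2 size factors, library totals, no filter, DESeq2, limma-voom and the replicate block the 8 enzymes kept their direction, with 6729 to 7417 called genes (7205 as reported) and 6 to 8 called enzymes. GCSH is counted among the enzymes here as a description. The call of MTHFD1 was lost with DESeq2, no filter and the block, and that of GCSH with no filter and limma-voom. The replicate numbers did not pair the libraries (correlations of −0.041, −0.00656 and −0.0653 between libraries of the same number), and the replicate block gave 6729 genes, 7 enzymes and 30 list genes. The GC offset gave 4251 genes and 3 enzymes, GC with length 4203 genes, 3 enzymes and 20 list genes, and the replicate block with the GC offset 4117 genes and 3 enzymes. Among the named genes, log2 fold changes that turned were those of PHGDH (−0.076, −0.063 and −0.076 in these 3 fits), FPGS (−0.30, −0.29 and −0.30), DLD (0.019, 0.042 and 0.019) and MTHFD2 (0.023 with length). SLC1A5, SLC19A1, TRIB3 and SLC38A2, outside the rule for named genes, were called in opposite directions with and without the GC offset. The cause of these shifts was not tested. Without 1 library 5338 to 9008 genes, 6 to 9 enzymes (9 with ALDH1L2, which passed the filter and was called without shCTRL replicate 3) and 22 to 33 list genes were called, and with the GC offset as well 2771 to 5623, 1 to 5 and 15 to 27. Without 1 library, and then with the GC offset as well, log2 fold changes ranged from 0.33 to 0.41 and −0.11 to −0.041 for PHGDH, from 0.32 to 0.47 and −0.022 to 0.19 for SHMT2, from −0.35 to −0.31 and −0.015 to 0.016 for MTHFD2, from 0.32 to 0.52 and −0.33 to −0.27 for FPGS, and from −0.40 to −0.31 and −0.016 to 0.054 for DLD. AMT and GLDC had too few reads in every library to be tested.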

Other observations

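CBS, the enzyme that joins serine to homocysteine in transsulfuration, had 1, 1 and 0 reads in shCTRL and 1, 0 and 0 in shFITM2, and its copy CBSL had 2 reads in 1 shCTRL library and none in the others. Their longest coding transcripts are 99.96% identical over 2429 aligned bases, so reads from either match both. The low counts of this pair say little about CBS mRNA while the handling of reads with several matches is not given in the sources used here.

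SLC25A32, the mitochondrial folate carrier, had 16, 7 and 18 reads in shCTRL and 15, 14 and 7 in shFITM2. It shares 2547 of its 3654 exon bases with AC012213.5 on the same strand, which was listed at 0 in every library. Reads that fall in exons of more than 1 gene may have been left out of both counts, which was not tested.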
